A study of Mus musculus with 2 samples.

Results

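High pigment and low pigment cells of the B16 F10 mouse melanoma line were compared within one part of the cell cycle, the cells that the authors' cell table calls G2M. A cell belonged to this set where the table's phase column reads G2M, which was so for 1395 of 4036 cells. They were 446 of 1900 low pigment cells (23.5%, exact 95% interval 21.6 to 25.4) and 949 of 2136 high pigment cells (44.4%, 42.3 to 46.6). The same comparison was made in the 749 low pigment and 708 high pigment G1 cells and in the 705 and 479 S cells, to see which differences G2M cells had on their own and which were present in all 3 phases.

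B16 F10 is an established tumour line from a mouse melanoma, and the labels describe its cells as melanocytes. Both groups came from one culture condition, high glucose medium with bovine serum, seeded sparsely at 100 cells per cm2 and trypsinised on day 7. The harvested cells were divided on a flow cytometer by side scatter, the light a cell throws sideways, which stood for pigment and also depends on a cell's other granules and its size. Each fraction was made into 1 library of 3′-end tagged polyadenylated RNA, with molecules counted by unique molecular identifiers (UMIs). With 1 library per group there is no replicate and no test between the groups. Differences are given by size, with 95% intervals that cover counting error only and leave out variation between cultures, sorts, preparations and cells.

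In G2 a cell has copied its DNA and builds up the proteins of division, and in mitosis condensin packs the chromosomes, kinetochores bind spindle microtubules, and the spindle checkpoint delays separation until all are attached. The anaphase-promoting complex then marks cyclin B and securin for destruction, and cytokinesis parts the daughter cells. In melanocytes the transcription factor MITF drives the genes of melanin synthesis and of the melanosome, the organelle in which melanin is made.

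The phase was itself set by RNA levels, since it followed the deposited S and G2M scores in all 4036 cells: a cell was G2M where its G2M score was above 0 and above its S score. Levels of cell cycle genes in these cells are therefore described without being used as support for anything, and no source used here names the genes that made up the scores. The members were thus selected on measured values, these 2 scores. The lowest G2M score inside the set was 0.00330 in the low and 0.000300 in the high pigment library, and the highest score of a G1 cell was −0.00144 and −0.00118. A G2M score under 0.1 was held by 66 low pigment (14.8%) and 276 high pigment (29.1%) G2M cells.

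High pigment G2M cells were shallower and scored lower on both scales than low pigment G2M cells. The median was 20280 UMIs per cell (range 7597 to 41990) in low and 14087 (7587 to 38940) in high pigment, a ratio of means of 1.38, and the group totals were 9155035 and 14126272 UMIs. The median G2M score was 0.216 against 0.153 and the median S score −0.0216 against −0.0956. An S score above 0 was found in 194 low pigment (43.5%) and 164 high pigment (17.3%) G2M cells. Median mitochondrial shares were 5.42% and 4.82%. The low pigment G2M cells lay mostly in the authors' clusters 2 (73.8%) and 1 (24.9%), and 88.8% of the high pigment ones in cluster 0. Depth, scores and library handling cannot be told apart from the pigment sort here.

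**Figure D1:**
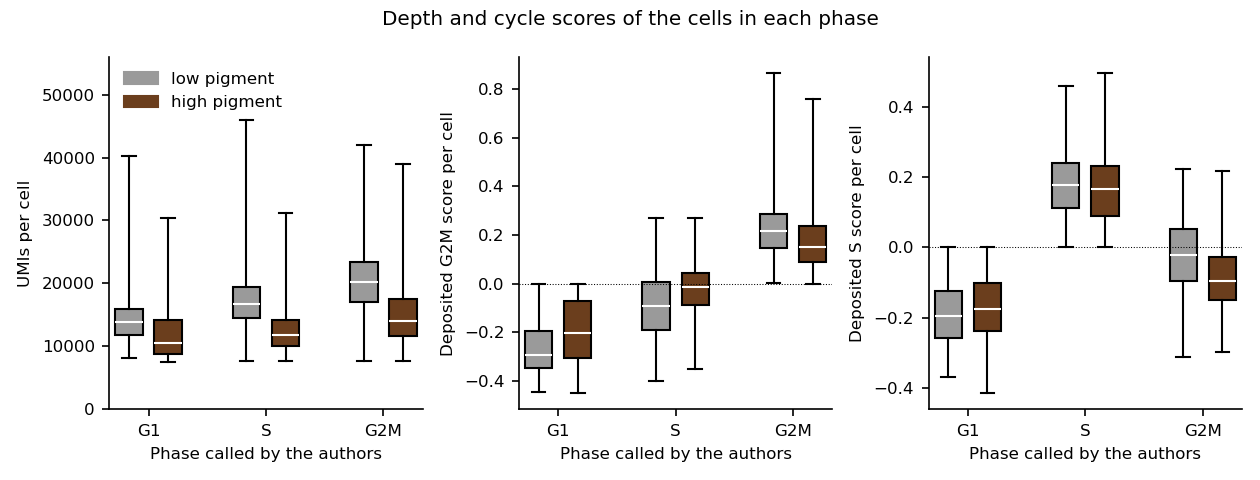
UMIs per cell and the deposited G2M and S scores (vertical axes) of the cells in each phase (horizontal axis), low pigment in grey and high pigment in brown. Boxes span the quartiles, white lines are medians and whiskers reach the lowest and highest cell. In G2M the high pigment box is the lower one in all 3 panels, with medians of 14087 against 20280 UMIs.

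The labelled cell type was matched by its markers in G2M cells of both libraries. The 7 melanocyte markers summed to 10754 CPM (the count per 1000000 UMIs of the group) in low and 14648 CPM in high pigment, and each was detected. Of 7 fibroblast markers 1 was at 0 in both libraries and the sum was 1.2 and 2.27 CPM. Of 8 leukocyte markers 4 were at 0, with sums of 4.37 and 1.42 CPM, and of 5 keratinocyte and 5 erythroid markers 3 and 4 were at 0, with sums of 0.218 and 0.0708 CPM and of 0.109 and 0 CPM. The 5 endothelial markers summed to 18.1 and 2.69 CPM, of which Pecam1, an adhesion molecule of vessel walls and platelets, held 162 of 166 and 35 of 38 UMIs. The 6 Schwann cell markers, some of which melanocytes also express (S100b and Sox10 among them), summed to 511 and 611 CPM, and Ngfr had 0 and 3 UMIs. The table's cells shared no barcode between libraries, and the whole matrix shared 2. The part of cells of other types in the results was not tested.

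Nearly all genes that differed in size between high and low pigment G2M cells lay on the same side in G1 and S cells, and under 1 in 2 of them passed the same size in both. A gene counted as measured at a mean of 10 CPM or more over both G2M groups, and as called at 1.5-fold. Of 7874 measured genes, 278 (3.53%) were called higher and 765 (9.72%) called lower in high pigment G2M cells. Over the same genes the G1 counts were 327 (4.15%) and 749 (9.51%), and the S counts 330 (4.19%) and 668 (8.48%). Of the 278 genes called higher in G2M, 117 (42.1%, or 1.49% of all measured genes) were also called higher in both G1 and S, 270 had a ratio above 1 in G1 and 277 in S. Of the 765 called lower, 349 (45.6%, or 4.43% of all) were also called lower in both other phases, 715 lay below 1 in G1 and 748 in S, and 6 were called in the opposite direction in G1.

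All ratios compare shares of a group's UMIs, not RNA per cell. The median measured gene had a log2 ratio of high to low pigment CPM of −0.09 in G2M, −0.09 in G1 and −0.05 in S. With the median gene of each phase set to no change, the G2M counts were 403 higher and 548 lower, a more even split than the 278 and 765 of the unshifted ratios. No measured gene had fewer than 33 UMIs in either G2M group. For the gene of median precision, counting error alone spanned a ratio 1.15-fold up or down.

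**Figure D2:**
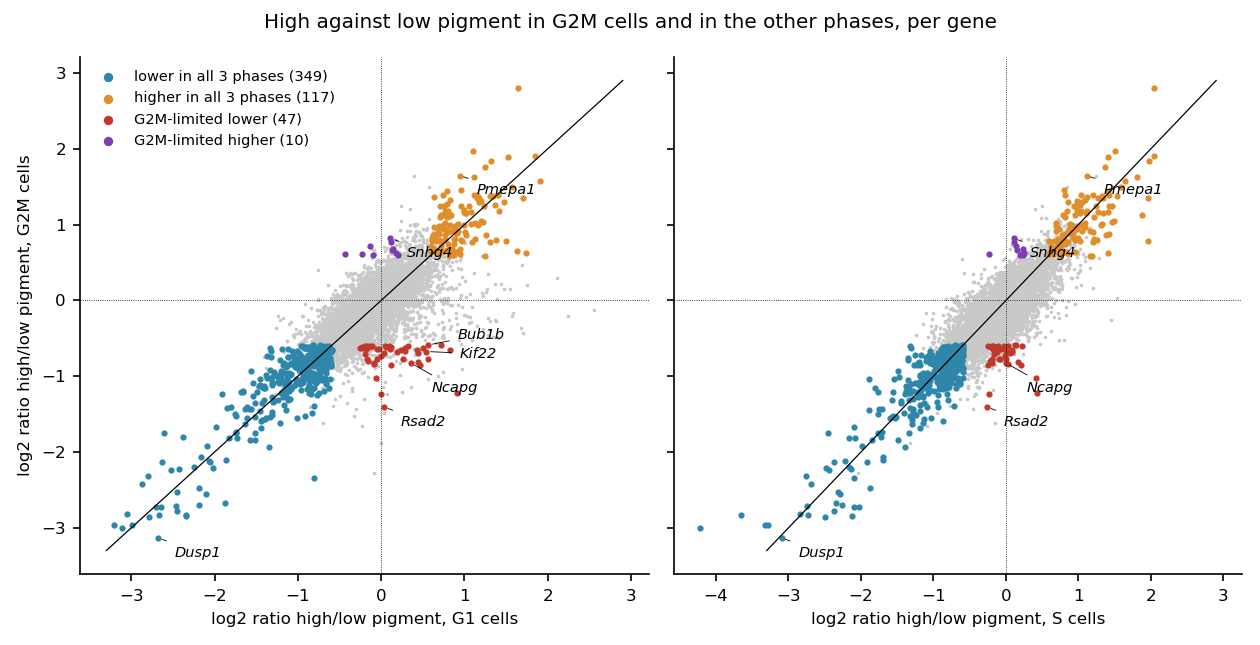
Log2 ratio of high to low pigment of each of 7874 measured genes in G2M cells (vertical axis) against G1 cells (left) and S cells (right). The diagonal marks equal ratios. Blue and orange points are genes called in all 3 phases (349 lower, 117 higher), and red and purple points are the 47 lower and 10 higher genes called in G2M and under 1.2-fold in the same direction in G1 and S. Most coloured points lie along the diagonal.

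Among genes with a mean of 50 CPM or more, most of the 10 smallest ratios in G2M cells belonged to immediate early genes, which are switched on within minutes of a stimulus, and to signalling feedback genes, and all 10 were also called lower in G1 and S. Dusp1, a phosphatase that shuts off MAP kinases, had 159 CPM (151 to 168) in low and 18.2 CPM (16 to 20.6) in high pigment G2M cells (8.77-fold lower, 7.67 to 10.0). Its log2 ratio was −3.13 in G2M, −2.68 in G1 and −3.10 in S. Jun, an AP-1 subunit, had 853 and 120.4 CPM (7.08-fold lower, 6.72 to 7.47). The high pigment level of both genes was below the low pigment level in each of the 3 phases. The AP-1 partners Fosb and Fos were 7.22-fold and 6.57-fold lower in G2M, and the zinc finger factor Egr1 7.16-fold. The kinase Sik1 was 6.87-fold lower, and the antiproliferative factor Btg2 6.59-fold lower in G2M.

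Of the 19 measured immediate early genes, 16 were called lower in G2M, 17 in G1 and 16 in S, and none was called higher in any phase. The list's median log2 ratio was −2.07 in G2M, −1.98 in G1 and −2.03 in S, beside −0.09 for all measured genes in G2M. The members not called in G2M were Ier3 (−0.49), Klf6 (−0.32) and Myc (−0.01). None of the 19 lay above 0 in any phase. With each cell thinned to 7500 UMIs, these genes took 0.307% of a low pigment cell's UMIs at the median (quartiles 0.227% and 0.413%) and 0.0800% of a high pigment cell's (quartiles 0.0400% and 0.120%). Only 19 of 949 high pigment G2M cells (2.0%, 1.21 to 3.11) lay above the low pigment median. The members were chosen with results of these data known, and their low ratios are not independent evidence of a direction.

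A few of these genes differed by more in G2M than in another phase. Nr4a1, an orphan nuclear receptor induced by growth signals, had 206 CPM in low and 32.5 CPM in high pigment G2M cells, 6.35-fold lower. In G1 it had 202 and 55.0 CPM, 3.66-fold lower, and in S 217 and 42.6 CPM. The gap between its G2M and G1 log2 ratios was −0.79 (−1.0 to −0.58), with its counting interval in brackets, and that to S was −0.32 (−0.55 to −0.07). For Egr1 the gaps were −0.50 (−0.85 to −0.14) to G1 and −0.71 (−1.04 to −0.38) to S. The low pigment level of Nr4a1 was close in the 3 phases, and the high pigment level was lowest in G2M.

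To show the DNA in front of genes with some of the smallest and largest ratios, RefSeq promoter windows (build GRCm38.p6, the 250 bases before the gene's start) were searched on both strands for 6 motifs. The cAMP response element TGACGTCA, a palindrome that the factor CREB binds, was in the windows of Btg2 and Dusp1 among the 7 matched genes of those 10 smallest ratios, and of Mitf among the 7 matched of the 10 largest at that minimum. It was in 3.45% of the 6356 measured genes with a window and in 1.55% of all 32851 windows. The windows below were chosen after the search because they hold a match, and the capitals mark the motif, 166 bases before the start in Btg2 and 153 in Mitf, which has 3 windows. Neither window overlaps an annotated exon in GENCODE vM21.
Btg2, chr1:134079156-134079405, minus strand: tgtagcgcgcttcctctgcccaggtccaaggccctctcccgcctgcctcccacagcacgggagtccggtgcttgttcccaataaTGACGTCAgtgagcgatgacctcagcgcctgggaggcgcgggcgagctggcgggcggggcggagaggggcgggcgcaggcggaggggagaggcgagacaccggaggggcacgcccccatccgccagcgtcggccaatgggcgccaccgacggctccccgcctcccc
Mitf, chr6:97991533-97991782, plus strand: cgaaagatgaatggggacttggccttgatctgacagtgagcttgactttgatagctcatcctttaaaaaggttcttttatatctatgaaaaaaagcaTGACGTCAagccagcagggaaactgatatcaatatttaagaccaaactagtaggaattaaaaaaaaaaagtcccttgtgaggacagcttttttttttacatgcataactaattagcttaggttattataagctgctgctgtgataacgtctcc
The same element thus stood before a gene with 6.59-fold less RNA and before one with 2.25-fold more RNA in high pigment G2M cells. A match is a description of these letters and not a measured binding site.

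Genes of cholesterol synthesis were lower in high pigment G2M cells almost throughout. Hmgcs1, which makes the pathway's first committed intermediate, had 189 CPM (180.0 to 198) in low and 32.1 CPM (29.2 to 35.2) in high pigment (5.87-fold lower, 5.29 to 6.53). The sterol carrier Stard4 had 50.2 CPM in low and 17.1 CPM in high pigment (2.93-fold lower). Of 24 measured members 20 were called lower in G2M, 15 in G1 and 17 in S, and 0 were called higher. The members not called in G2M were Acat2 (−0.53), Nsdhl (−0.44), Tm7sf2 (−0.42) and Ebp (−0.11).

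The cholesterol list had its lowest median in G2M, at −0.91 beside −0.69 in G1 and −0.76 in S. In 18 of 24 members the G2M log2 ratio was below both others, as it was in 2720 of all 7874 measured genes. The gap of Hmgcs1 was −0.46 (−0.70 to −0.21) to G1 and −0.27 (−0.54 to 0.00) to S. Stard4 had log2 ratios of −1.55, −1.01 and −1.04 in G2M, G1 and S. In thinned cells the list took 0.253% of a low pigment cell's UMIs at the median (quartiles 0.147% and 0.360%) and 0.120% of a high pigment cell's (quartiles 0.0800% and 0.173%), and 76 of 949 high pigment G2M cells (8.01%, 6.36 to 9.92) lay above the low pigment median. Fatty acid synthesis genes had a median of −0.57, with 5 of 14 called lower, among them the desaturases Scd2 (1.61-fold) and Fads2 (1.51-fold).

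The promoter of Hmgcs1 is shown because it held both motifs known from sterol-controlled genes, a sterol element (TCACNCCAC) and the CCAAT box (CCAAT, written ATTGG where it lies on the other strand). Among 17 cholesterol genes with a window, 16 held a CCAAT box (94.1%), beside 40.7% of measured genes with a window, and 1 held the sterol element, beside 1.15%. The capitals mark 3 CCAAT boxes and 1 sterol element, none of which overlap.
Hmgcs1, chr13:119690101-119690350, plus strand: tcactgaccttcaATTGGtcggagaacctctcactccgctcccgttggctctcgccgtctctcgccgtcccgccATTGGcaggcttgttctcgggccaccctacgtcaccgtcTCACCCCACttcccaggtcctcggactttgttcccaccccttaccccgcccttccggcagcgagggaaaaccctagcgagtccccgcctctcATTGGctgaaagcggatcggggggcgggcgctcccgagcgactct
Hmgcs1 had one of the 10 smallest G2M ratios among genes with a mean of 50 CPM or more.

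Among genes with a mean of 50 CPM or more, the largest ratios in G2M cells were less far from 1 than the smallest ones, and these genes were again called in G1 and S. Pmepa1, a membrane protein that dampens TGF-beta signalling, had 58.1 CPM (53.3 to 63.3) in low and 182 CPM (175 to 189) in high pigment (3.13-fold higher, 2.85 to 3.44). Its log2 ratio of 1.65 exceeded those in G1 (0.94) and S (1.11), with gaps of 0.70 (0.52 to 0.88) and 0.53 (0.34 to 0.73). Tnrc6a, a scaffold of microRNA silencing, was 2.61-fold higher, and the microtubule-binding protein Map7d2 2.49-fold. Map7d2 and Fabp7, a fatty acid binding protein, also differed by more in G2M than in G1, with gaps of 0.49 (0.31 to 0.67) and 0.48 (0.26 to 0.70). The galectin gene Lgals3 was 2.37-fold, the actin regulator Eps8 2.37-fold and the caspase-8 inhibitor Cflar 2.37-fold higher. All 10 genes with the largest ratios at that minimum were called higher in all 3 phases.

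Lineage factors of pigment cells went both ways in G2M cells, with 6 of 11 ratios above 1 and 5 below. Mitf had 236 CPM (226 to 246) in low and 531 CPM (519 to 543) in high pigment (2.25-fold higher, 2.15 to 2.37), and its log2 ratio was 1.17 in G2M, 1.0 in G1 and 1.27 in S. The coactivator Ppargc1a, which drives mitochondrial biogenesis, was 2.24-fold higher. Sox10, which activates Mitf, had 141 CPM in low and 245 CPM in high pigment, 1.73-fold higher. Sox9 was 2.12-fold and Tfap2a 1.65-fold higher, while Pax3 (−0.29) and Creb1 (0.18) were not called. Tfe3, a relative of Mitf, was 1.77-fold lower, and Usf1 1.69-fold lower. Of 11 measured lineage factors 5 were called higher and 2 lower in G2M.

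The list for melanin synthesis and the melanosome had 17 measured genes, among them some with other roles, such as Met and Ptgds. Of the 17, 5 were called higher in G2M and 0 lower, beside 3.53% and 9.72% of all measured genes. In G1 0 were called higher and 1 lower, and in S 5 and 0. The 5 in G2M were Mlana (1.55-fold), a melanosome protein, the receptor Met (1.60-fold), the melanosomal tetraspanin Tspan10 (1.60-fold), the cystine carrier Slc7a11 (1.61-fold) and Ptgds, a prostaglandin D synthase (1.52-fold). Mlana had 1436 CPM in low and 2231 CPM in high pigment, with log2 ratios of 0.64 in G2M and 0.42 in G1. Dct and Tyrp1, enzymes downstream of tyrosinase, were 1.39-fold and 1.29-fold higher in G2M. Tyr, the rate-limiting tyrosinase, had 123 CPM in low and 118 CPM in high pigment (−0.05 in log2), and Pmel, which forms the melanosome's fibrils, 1321 CPM in low and 1281 CPM in high pigment (−0.05). Pmel was lower in G1, at −0.37.

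The melanin list's median was 0.37 in G2M, 0.20 in G1 and 0.40 in S. In all 17 members the G2M log2 ratio was above the G1 one, and in 8 it was above the S one. Among all 7874 measured genes it was below the G1 one in 3756 and below the S one in 4398. In thinned G2M cells these genes took 1.39% of a low pigment cell's UMIs at the median (quartiles 1.05% and 1.78%) and 1.88% of a high pigment cell's (quartiles 1.53% and 2.27%), and 772 of 949 high pigment G2M cells (81.3%, 78.7 to 83.8) lay above the low pigment median. The share above the low pigment median of the same phase was 76.4% in G1 and 81.0% in S, so it was not particular to G2M. The 17 transport and sorting genes went both ways, with a median of −0.01, 8 above 0 and 9 below, 3 called higher and 2 lower. Of these Mlph, which links melanosomes to the motor myosin Va, was 1.89-fold and Rab27a, its anchor on the organelle, 1.53-fold higher, while Bloc1s5, a subunit of a cargo sorting complex, was 2.32-fold and the adaptor subunit Ap3m1 1.52-fold lower.

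Few genes met the size rule for a difference limited to G2M. The rule asked for at least 1.5-fold in G2M and less than 1.2-fold in the same direction in both G1 and S. It was met by 10 genes higher in high pigment (0.127%) and 47 lower (0.597%). The same rule gave 48 higher (0.61%) and 20 lower (0.254%) genes for G1 and 17 (0.216%) and 18 (0.229%) for S, so G2M was not alone in having such genes. Of the 47, 12 belonged to the cell cycle lists, as did 29 of the 48 higher genes limited to G1. Among the 7874 measured genes those lists held 114 mitotic genes, 43 of S phase and 12 cell cycle transcription factors. Of the 47, 26 were at least 1.5-fold above their G1 level in both libraries, as were 333 of all 7874 measured genes. None of the 10 higher genes was in the cell cycle lists or so far above its G1 level in both libraries. The rule is a size rule and no gene's gap between phases was tested against replicates.

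Membership of this group depended on how the cells were grouped and scaled. With phases called anew on cells thinned to equal depth, 16 of the 47 lower and 2 of the 10 higher genes still met the rule. With the median gene of each phase set to no change it was 19 and 5, with the libraries balanced on the G2M score 29 and 10, and with G2M cells of an S score of 0 or below 24 and 4. The direction in G2M was kept by all of them under each of these settings except 1 of the 47 in the last, Cdc45, whose log2 ratio went from −0.60 to 0.20.

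Among the lower genes with a mean of at least 20 CPM, Rsad2 had the lowest ratio. Rsad2, the interferon-induced antiviral protein viperin, had 31.3 CPM (27.8 to 35.2) in low and 11.8 CPM (10.1 to 13.8) in high pigment G2M cells (2.65-fold lower, 2.18 to 3.23). In G1 it had 34.1 and 35.0 CPM and in S 21.6 and 18.0 CPM. The high pigment G2M group was the lowest of the 6, and the gaps were −1.44 (−1.81 to −1.08) to G1 and −1.15 (−1.58 to −0.71) to S. Its UMIs were concentrated in few cells: the 10 cells with the most held 28.6% of them in low pigment G2M cells and 45.5% in high pigment G1 cells, which the intervals do not cover. The share of cells with at least 1 UMI was lower in high pigment in every phase, at 14.2% against 33.9% in G2M, 18.6% against 28.0% in G1 and 14.2% against 24.1% in S, in cells of unequal depth. With phases called anew its G2M log2 ratio was −0.72 in place of −1.41.

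Ncapg, a subunit of the condensin that packs mitotic chromosomes, had 94.2 CPM (88.0 to 101) in low and 53.1 CPM (49.4 to 57) in high pigment G2M cells (1.77-fold lower, 1.61 to 1.96). Over the alternatives its G2M log2 ratio ranged from −0.85 to −0.67. Its G1 levels were 15.8 and 20.2 CPM and its S levels 54.2 and 54.3 CPM. The low pigment G2M group was the highest of the 6, the high pigment G2M group was level with S, and the gaps were −1.18 (−1.53 to −0.84) and −0.83 (−1.07 to −0.59). Bub1b, a kinase-like protein of the spindle checkpoint, had 73.5 CPM in low and 48.9 CPM in high pigment, 1.5-fold lower and just past the limit, against 10.6 and 15.7 CPM in G1 and 38.6 and 42.4 CPM in S. Over the alternatives the G2M log2 ratio of Bub1b ranged from −0.69 to −0.41. It fell short of 1.5-fold under score balance, low S scores, centring, phases called anew, per-cell CPM, cells of 10000 to 25000 UMIs and thinned sums. The chromosome-arm kinesin Kif22 was 1.60-fold and the kinetochore protein Kntc1 1.66-fold lower in G2M. Kif22 fell short of 1.5-fold under score balance (−0.50) and centring (−0.58). With phases called anew Kif22 was at −0.37 in G1, past the 1.2-fold limit. All 4 are expressed most in dividing cells, and their values describe cells whose phase was set by RNA scores.

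The other lower genes of this group with a mean of at least 20 CPM described here act in chromatin, DNA repair or the control of cell cycle genes. Rbl1, a pocket protein that represses cell cycle genes, had 28.6 CPM in low and 17.7 CPM in high pigment G2M cells and 26.6 and 27.7 CPM in S. It was 1.62-fold lower in G2M, the DNA damage mediator Mdc1 1.71-fold and the transcription factor Tcf19 1.5-fold. Hist2h2aa1, a histone H2A gene, was 1.71-fold lower, though histone genes have near-identical copies and this count is uncertain to that extent. In S cells the log2 ratios of these 4 genes lay between −0.08 and 0.12. The rule chose these genes for being close in S and apart in G2M. In G1 they were between −0.05 (Mdc1) and 0.72 (Tcf19). Among G2M cells with an S score of 0 or below, Rbl1 (−0.46), Tcf19 (−0.47) and Hist2h2aa1 (−0.39) fell short of 1.5-fold. Mdc1 (−0.67) did not. With phases called anew the G2M log2 ratios of Rbl1 (−0.55) and Tcf19 (−0.42) fell short as well. In that setting Mdc1 (−0.79) and Rbl1 (−0.49) were lower in G1 by more than 1.2-fold, so neither met the rule.

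The promoter of Bub1b is shown as an example of the lower genes limited to G2M, of which 37 of 47 had a RefSeq window. A CCAAT box was in 21 of the 37 (56.8%), in 54.7% of the genes called lower in all 3 phases and in 40.7% of measured genes with a window. The cell cycle element CHR (TTTGAA or TTTAAA) was in 27.0% of the 37, beside 20.2% of measured genes. The window was chosen after the search, and the capitals mark its CCAAT box, read on the other strand, 113 bases before the start.
Bub1b, chr2:118597961-118598210, plus strand: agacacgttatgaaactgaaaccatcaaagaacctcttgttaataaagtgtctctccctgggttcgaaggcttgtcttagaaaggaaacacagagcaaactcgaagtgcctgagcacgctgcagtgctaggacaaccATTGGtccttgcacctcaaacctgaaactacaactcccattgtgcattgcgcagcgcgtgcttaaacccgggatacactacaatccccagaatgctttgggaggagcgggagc
No CHR was found in this window.

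Of the 10 genes higher in G2M alone, 2 had a mean of at least 20 CPM. Snhg4, a long noncoding RNA whose introns carry small nucleolar RNAs, had 23.6 CPM (20.6 to 27.0) in low and 41.6 CPM (38.3 to 45.1) in high pigment G2M cells (1.76-fold higher, 1.51 to 2.07). In G1 it had 48.3 and 52.1 CPM and in S 39.7 and 42.8 CPM. The low pigment G2M group was the lowest of the 6, the others lay close together, and both gaps were 0.71 (0.41 to 1.0 to G1, 0.39 to 1.03 to S). Stox2, which encodes a winged helix protein, had 50.2 CPM in low and 76.2 CPM in high pigment G2M cells. That was 1.52-fold higher, just past the limit of 1.5. In G1 it had 73.0 and 68.4 CPM, and in S 51.3 and 60.3 CPM (1.18-fold higher, 1.03 to 1.34), just under the limit of 1.2. Stox2 missed the rule in G2M with phases called anew (0.50) and with low S scores (0.51), and in S with centring (0.29). The remaining 8 had means under 20 CPM, among them Dancr, another host of small nucleolar RNAs (0.77, 0.12 and 0.11 in G2M, G1 and S), which was named after its values were seen.

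**Figure D3:**
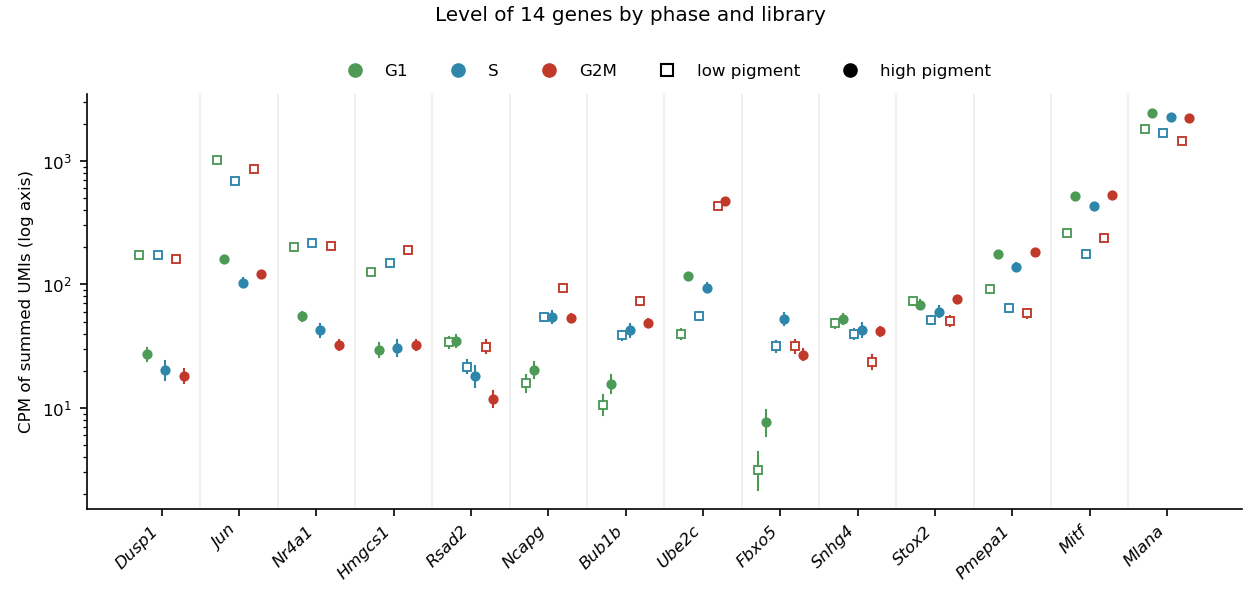
Level of 14 genes (CPM of the group's summed UMIs, log axis) in low pigment (open squares) and high pigment (filled circles) cells of each phase (colours). Vertical lines are exact 95% Poisson intervals and cover counting error only. Dusp1 and Jun are apart in all 3 phases, while Ncapg and Bub1b are apart in G2M and nearly level in S.

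Most mitotic genes had ratios a little below 1 in G2M cells and above 1 in G1 cells, and in G2M the shares called were near those of all genes. Over 6 lists with 114 measured genes, the median log2 ratio was −0.28 in G2M, 0.56 in G1 and 0.12 in S, while the medians of all measured genes were −0.09, −0.09 and −0.05. In G2M 89 of the 114 lay below 0, beside 4822 of all 7874. Of the 114, 11 were called lower and 4 higher, near the 9.72% and 3.53% of all measured genes. In G1 97 lay above 0, and 55 were called higher and 0 lower, beside 4.15% and 9.51% of all. The G2M ratio was below both others in 101 of the 114, beside 2720 of all 7874 genes. Since the phase was called from RNA scores for S and G2M, these values describe the sets of cells and support no difference in division. The lower G2M scores of high pigment G2M cells and the higher scores of high pigment G1 cells (medians of −0.204 against −0.292) moved with them, and their part was not tested. With the libraries balanced on the G2M score the G2M median was −0.13 in place of −0.28, and with phases called anew on cells of equal depth the G1 median was 0.26 in place of 0.56.

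By role, mitotic kinases had medians of −0.32 in G2M and 0.77 in G1, with 4 of 16 called lower and 1 higher in G2M. Cdk1, the kinase that starts mitosis, had 195 CPM in low and 149.9 CPM in high pigment (−0.38, and 0.74 in G1). Plk1 was at −0.40 in G2M and 1.31 in G1, and Aurkb at −0.13 and 2.56. Melk, a kinase of proliferating cells, was 1.99-fold lower. Wee1, the kinase that holds Cdk1 back, went the other way, at 22.0 CPM in low and 37.4 CPM in high pigment (1.71-fold higher), and was also higher in G1 (1.31) and S (0.86).

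Cyclins and the anaphase-promoting complex had the median nearest to that of all genes, −0.09 in G2M. Ccnb1, cyclin B1, was at 0.10, Ccna2 at −0.19, and the activator Cdc20 at −0.40. Cdc23, a subunit of the complex, was 1.61-fold lower. Ccnf, a cyclin that is also a ubiquitin ligase part, was 2.46-fold higher (14.5 CPM in low and 35.7 CPM in high pigment) and was called higher in all 3 phases. No member of this list met the rule for G2M alone.

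Spindle genes had medians of −0.30 in G2M and 0.54 in G1. The kinesin Kif14, which acts in cytokinesis, was 1.87-fold lower in G2M, and Psrc1, a spindle microtubule binder, 1.54-fold lower. Kif11, which pushes the poles apart, was at −0.30 in G2M and 1.05 in G1, and Nusap1 at −0.21 and 2.24. Gtse1, a microtubule-binding protein, was 1.54-fold higher in G2M and higher in G1 and S as well.

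Centromere and kinetochore genes had medians of −0.21 in G2M and 0.72 in G1, and 23 of 23 lay above 0 in G1. Ndc80, which binds microtubules, was 1.59-fold lower in G2M, while Cenpf (0.02) and Birc5 (0.01) were level in G2M and higher in G1 (1.39 and 0.81). Sgo1, which protects cohesion at centromeres, was 1.57-fold higher in G2M. Chromosome structure genes had a median of −0.33 in G2M, with Top2a, the topoisomerase that untangles DNA, at −0.50 and the proliferation marker Mki67 at −0.40. Cytokinesis genes had a median of −0.28, with Anln at −0.39 and Ect2 at −0.26. In each of these lists at most 1 gene was called lower in G2M.

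Genes of S phase were lower still in high pigment G2M cells. Their median was −0.44 in G2M, 0.19 in G1 and −0.01 in S, with 10 of 43 called lower and 1 higher in G2M. Ccne1, cyclin E1 of S phase entry, had 72.2 CPM in low and 27.2 CPM in high pigment, 2.66-fold lower, and Slbp, which binds histone messages, was 2.35-fold lower. Rrm2, which makes deoxynucleotides, was 1.54-fold lower. In thinned cells the list took 0.347% of a low pigment cell's UMIs at the median (quartiles 0.267% and 0.440%) and 0.267% of a high pigment cell's (quartiles 0.200% and 0.333%). The share of G2M cells with an S score above 0 was lower in high pigment as well (43.5% in low and 17.3% in high pigment). Among G2M cells with an S score of 0 or below, the list's median was −0.15. Ccne1 and Slbp were still called lower there. Over the alternatives their G2M log2 ratios ranged from −1.48 to −1.17 and from −1.30 to −1.14.

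**Figure D4:**
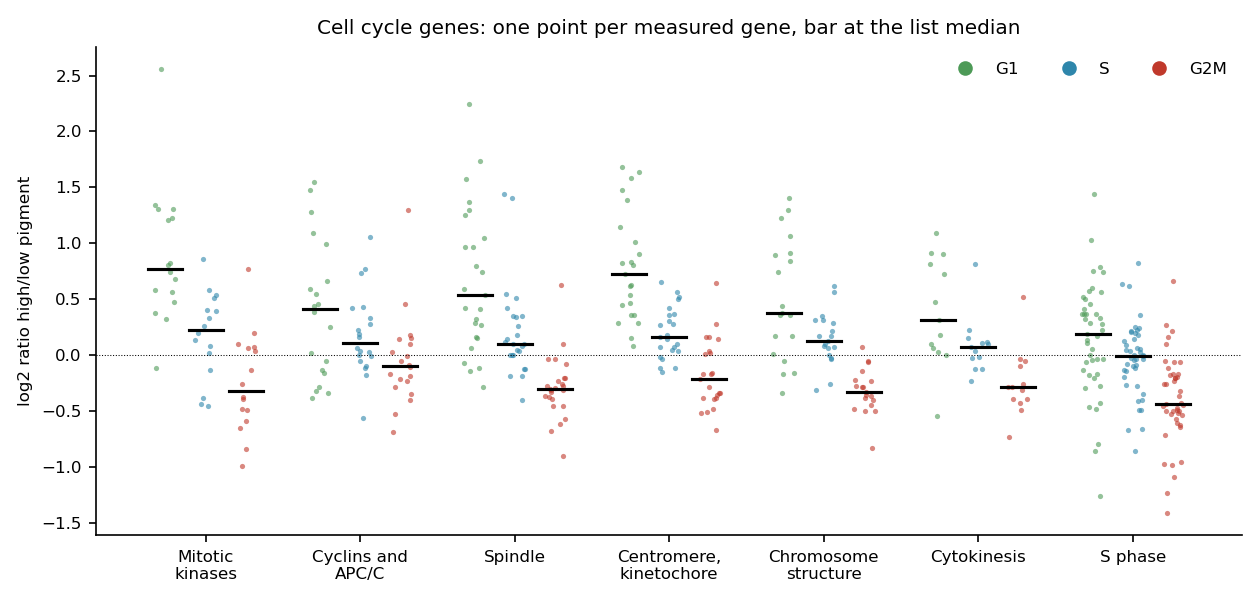
Log2 ratio of high to low pigment (vertical axis) of each measured gene in 6 mitotic lists and the S phase list (horizontal axis), with 1 point per gene and phase and a bar at each list's median. The G2M points (red) have the lowest median and the G1 points (green) the highest in each list, for example −0.32 and 0.77 for mitotic kinases.

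The opposite pattern, at least 1.5-fold in the same direction in G1 and S and under 1.2-fold in G2M, was met by 18 higher (0.229%) and 9 lower (0.114%) genes. Ube2c, the ubiquitin-conjugating enzyme of the anaphase-promoting complex, had 430.0 CPM in low and 477 CPM in high pigment G2M cells (1.11-fold, 1.07 to 1.15, which excludes 1) and 39.7 and 116 CPM in G1 (2.93-fold higher). Fbxo5, an inhibitor of that complex, had 31.6 and 26.9 CPM in G2M, 3.13 and 7.61 CPM in G1 and 31.6 and 52.5 CPM in S. Both are cell cycle genes, to which the limit on the called phase applies. Of the other higher genes the naming rule picked, Ercc6l, a helicase of mitotic chromosomes, is one too. The peptide-amidating enzyme Pam, the transcription factor subunit Gabpb2 and the proline isomerase Ppwd1 had G2M log2 ratios of 0.00, −0.04 and 0.03, and G1 ones of 0.73, 0.62 and 0.95. These stayed within 1.2-fold in G2M under each setting, but not past 1.5-fold in G1 and S under each. With each cell thinned to 7500 UMIs, Pam in S (0.42) and Gabpb2 (0.51) and Ppwd1 (0.57) in G1 were under 1.5-fold. Ube2c passed that limit with score balance (0.30), Fbxo5 in cells of 10000 to 25000 UMIs (−0.28) and Ercc6l with thinned sums (−0.32). With phases called anew, Fbxo5 (0.13) and Ercc6l (0.03) in G1 and Ube2c (0.55) and Ppwd1 (0.58) in S were under 1.5-fold.

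The lower genes of this kind also passed the 1.2-fold limit in G2M under some settings. Apold1, an early response gene, had 54.9 CPM in low and 47.8 CPM in high pigment G2M cells and 105 and 44.5 CPM in G1 (2.37-fold lower), with gaps of 1.04 (0.80 to 1.28) to G1 and 0.45 (0.17 to 0.74) to S. For the microtubule end protein Mapre2 the gaps were 0.41 (0.07 to 0.75) and 0.39 (0.03 to 0.75). For the signalling adaptor Appl2 they were 0.35 (−0.02 to 0.73) and 0.42 (−0.02 to 0.87), and both intervals include 0. Over the alternatives the G2M log2 ratio ranged from −0.44 to −0.10 for Apold1, −0.38 to −0.06 for Mapre2 and −0.47 to −0.15 for Appl2.

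Across the 33 gene lists, 24 had a median below 0 in G2M. Chromatin regulators were lower in G2M (−0.30) than in G1 (−0.13) or S (−0.14), with Uhrf1, which copies DNA methylation after replication, 1.96-fold lower and the architectural protein Hmga2 1.97-fold higher. Targets of p53 had a smaller median in G2M (0.19) than in G1 (0.29) or S (0.51). Cdkn1a, the p53-induced inhibitor of cyclin kinases, had 264 CPM in low and 397 CPM in high pigment G2M cells (1.51-fold higher) and was 2.37-fold higher in G1 and 2.23-fold in S. Cytosolic chaperones had a median of −0.25, with Hspa8 at 1982 CPM in low and 973 CPM in high pigment.

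Feedback genes of ERK, cytokine and Notch signalling were mixed, with a median of −0.40, 6 of 14 called lower and 2 higher. Hes1, the Notch-driven repressor, was 4.65-fold lower and the kinase Pim3 4.57-fold lower, while Irak2, a kinase of interleukin-1 signalling, was 3.09-fold higher. The list named for NRF2 targets had a median of 0.03, and whether NRF2 controls each member was not tested. Its members ranged from Txnip, an inhibitor of thioredoxin, at 7.05-fold lower to Hmox1, heme oxygenase 1, at 2.04-fold higher. Nuclear oxidative phosphorylation genes had a median of 0.17 and ribosomal protein genes of 0.02, with 0 called in either list, and ribosomal protein genes have close copies that make their counts uncertain. Mitochondrially encoded genes had a median of −0.23.

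**Figure D5:**
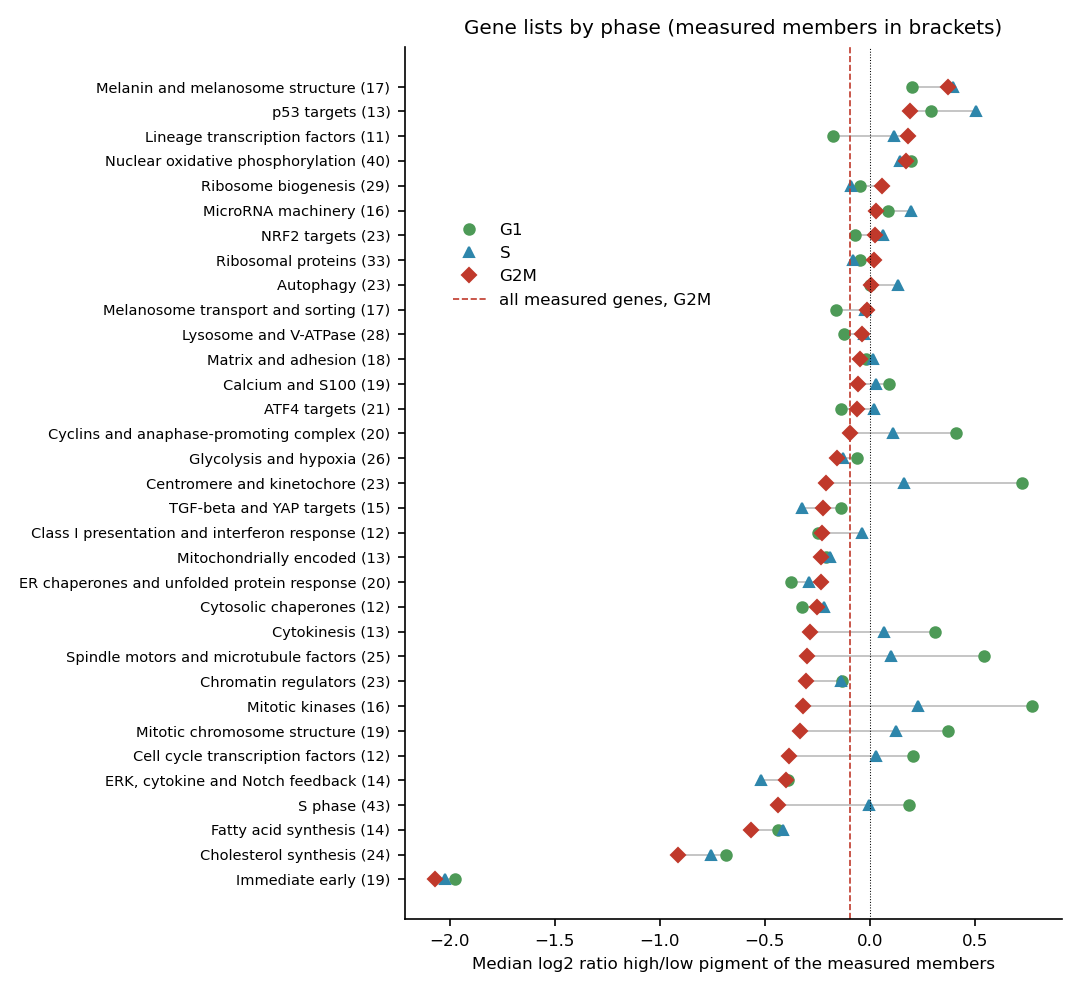
Median log2 ratio of high to low pigment (horizontal axis) of the measured members of 33 gene lists (vertical axis, number of members in brackets) in G1, S and G2M cells. The dashed line is the median of all measured genes in G2M, −0.09. The immediate early list has its 3 symbols close together at −1.98, −2.03 and −2.07, the p53 and lineage lists are wider, and the cell cycle lists are spread with G2M lowest.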

How the data were processed

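The low and the high pigment library of B16 F10 cells were measured by single-cell 3′ RNA sequencing. Per the submitters' processing notes, the authors used Cell Ranger 6.1.2 and the mm10 build. They deposited 1 matrix of UMI counts (32285 genes, 5818 barcodes) and a table of 4036 cells with library, phase, cluster, S and G2M scores and mitochondrial and ribosomal percent values. No source used here says whether depth was equalised when the libraries were joined. Every table cell had at least 7514 UMIs, and no column lacked a sample.

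UMI counts were summed per phase and library and given as CPM of the sum, with exact Poisson intervals, and ratios with exact binomial intervals (95%, counting error only). Gaps between phases used exact conditional odds ratios, or the Woolf log interval for 62 of 362 named genes with counts too large for the exact method. Shares used Clopper-Pearson intervals. A count of 3 was the floor, which each measured gene passed in every group. No test between the groups was made. Of 744 gene entries in 33 lists, 740 were found. The members and lists were chosen with earlier results of these data known. Genes were named as the 10 largest and 10 smallest ratios at a mean of 50 CPM or more, up to 10 G2M-limited genes per direction and up to 6 per direction called in G1 and S but not G2M at 20 CPM or more, and per list the 4 largest and 4 smallest ratios, with the mitosis, melanin and lineage lists free to be given in full. A few further genes were named from their values, and some genes that the rule picked are not reported here.

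Scrublet (in scanpy 1.11.5, expected rate 6%) marked 5 low and 15 high pigment cells (0.263% and 0.702%). Its automatic threshold was unstable for the low pigment library, so leaving out the highest-scoring 6% of cells was added, and no doublet was removed from the values reported. On counts simulated with counting error alone and 2-fold changes in G2M only, the procedure recovered the folds. The simulation held no variation between cells or libraries and no phase calling, so it says nothing about these. Python 3.11.15, numpy 2.4.6, scipy 1.17.1, pandas 2.3.3 and matplotlib 3.10.9 were used. Alternatives were phases called anew, centring, a lower CPM minimum, per-cell CPM, doublets, equal depth, a depth range, score balance, 2-fold calls, thinned sums and low S scores.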

Additional observations from a re-analysis of the deposited data

Results flagged for a closer look

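For 4 genes with a mean of 20 CPM or more, high pigment cells lay at least 1.5-fold below low pigment cells in G2M. In G1 the high pigment cells lay at least 1.5-fold above, with intervals on opposite sides of no difference. The difference between the phases was not tested. Kif14, a kinesin of cytokinesis, had a log2 ratio of 0.97 in G1 and −0.90 in G2M. Its G1 ratio rested on 25 low pigment and 39 high pigment UMIs. Melk, a kinase of proliferating cells, had 0.68 in G1 and −0.99 in G2M. Mxd3, a repressor of the MAX network, had 0.74 in G1 and −0.95 in G2M. Tcf19, a transcription factor of cell cycle progression, had 0.72 in G1 and −0.59 in G2M. With phases called anew its G1 log2 ratio was 0.05. Ttk met the same conditions at a mean of 13.8 CPM, with 0.83 in G1 and −0.65 in G2M. The G1 ratio of Ttk rested on 24 low pigment and 34 high pigment UMIs. The phases themselves were called from RNA scores, whose genes no source used here names.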

How the results depend on the processing

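No paired analysis was possible because each group is 1 library. Every alternative was run on all measured genes. Lowering the minimum mean CPM from 10 to 2 gave 569 genes higher and 1596 lower in G2M, 45 and 110 limited to G2M, 240 and 702 called in all 3 phases, and 78 called in G1 and S but not G2M. Calling at 2-fold gave 63 and 200 in G2M, 0 and 4 limited to G2M, 28 and 102 in all 3 phases, and 1 called in G1 and S but not G2M. With the median gene set to no change, 25 lower genes were limited to G2M and 179 higher genes were called in all 3 phases. With each cell thinned to 7500 UMIs, 30 higher and 75 lower genes were limited to G2M. With the libraries balanced on the G2M score, 30 lower genes were limited to G2M. With group sums thinned to the smallest total, 17 higher genes were, and with phases called anew, 3. No count moved by over 1.5 times with the mean of per-cell CPM, without marked doublets, or with cells of 10000 to 25000 UMIs, nor in 2 alternatives chosen after seeing the data, G2M cells with an S score of 0 or below and leaving out the 6% of cells with the highest doublet score. Of the named genes called in G2M, only Cdc45 reversed, to a log2 ratio of 0.20 in cells with an S score of 0 or below. Of all 765 genes called lower in G2M, 764 kept their direction there and 764 with cells thinned to 7500 UMIs, and all 765 did under each other alternative, as did all 278 called higher under every one. The causes of these shifts were not tested, apart from the changed threshold, scaling or gene set in each alternative. With 1 library per group the spread between cultures or sorts is unknown, the smallest G2M sum of a measured gene was 33 UMIs (fewer in other phases, such as 25 for Kif14 in low pigment G1 cells), and differences under the counting factor of about 1.15 were not detectable for the median gene.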

Other observations

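The following gene groups each held some members past 1.5-fold in G2M cells, beside 9.72% of all measured genes called lower and 3.53% called higher, and several groups were near those shares. Genes of antigen presentation and the interferon response had a median of −0.23 in log2, with 5 called lower and 0 higher of 12 measured. H2-K1, a class I heavy chain, had 34.8 CPM in low and 15.3 CPM in high pigment G2M cells (2.28-fold lower) and log2 ratios of −0.84 in G1 and −1.17 in S, although class I genes have close copies that leave its count uncertain. Targets of TGF-beta and YAP signalling had a median of −0.22 in log2, with 4 called lower and 3 higher of 15 measured. Ccn1, a secreted matrix protein and YAP target, had 37.5 CPM in low and 5.66 CPM in high pigment (6.62-fold lower), while Id2, an inhibitor of helix-loop-helix factors, was 1.58-fold higher and Pmepa1 3.13-fold.

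MicroRNA machinery genes had a median of 0.03 in log2, with 1 called lower and 2 higher of 16 measured, and the 2 were Tnrc6a and Dicer1, the nuclease that makes mature microRNAs (21.2 CPM in low and 43.9 CPM in high pigment, 2.07-fold). Ribosome biogenesis genes had a median of 0.06 in log2, with 1 called lower and 2 higher of 29 measured. Ppan, a factor of large subunit assembly, had 8.19 CPM in low and 27.7 CPM in high pigment (3.39-fold higher), while Nop56, a nucleolar core protein, was 1.59-fold lower. Glycolysis and hypoxia genes had a median of −0.16 in log2, with 2 called lower and 3 higher of 26 measured, from Ddit4, a stress inhibitor of mTORC1, at 2.38-fold lower to Eno2, an enolase, at 1.66-fold higher. Genes of the unfolded protein response had a median of −0.23 in log2, with 3 called lower and 1 higher of 20 measured, and the chaperone Hspa5 was at −0.56 in log2. Targets of ATF4 had a median of −0.06 in log2, with 2 called lower and 0 higher of 21 measured, with Ddit3 1.88-fold lower. Flcn, folliculin, an autophagy and lysosome regulator, had 27.2 CPM in low and 60.3 CPM in high pigment (2.22-fold higher).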
